A study of Mus musculus with 15 samples.

Results

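The 10 Kruppel-like factor genes described here are Klf2, Klf3, Klf4, Klf6, Klf7, Klf9, Klf10, Klf11, Klf13 and Klf16, of 21883 protein-coding mouse genes in the annotation used. They are a part of the family, listed with earlier results of these data known, and their peaks were chosen from every peak list by 1 rule. A peak counted for a gene when it overlapped the gene's span widened by 10 kb on each side. Presence of a peak in that window is therefore what chose the regions, and it is given below as a description, with no test. The 12 lists together held 127 such peaks. The peaks farthest out lay at Klf10, 8475 bp beyond the gene span, and the nearest peaks left out lay 1961 to 2096 bp beyond the upper edge of the Klf16 window, in the 3 H3K4me3 libraries.

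The cells were HPC-7, a mouse early haematopoietic progenitor line made from embryonic stem cells, studied as 1 cell line. SMC3, a core subunit of the cohesin ring, was profiled in cells with a short hairpin RNA against YY1 (shYY1) and in control cells. YY1, a zinc finger transcription factor, and H3K4me3, a histone mark of active promoters, were profiled in control cells. The assay was CUT&Tag, in which an antibody brings a transposase that tags the DNA beside its target, with about 150000 cells in each reaction.

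The 4 groups used were shYY1 SMC3, control SMC3, control YY1 and control H3K4me3, with 3 libraries each, described as biological replicates in the labels' protocol. The titles give the control cells as wild type, whereas the descriptions name a luciferase hairpin for them. The first SMC3 library of each arm is named Abcam in its description and the others are not, so a difference in antibody between replicates cannot be told apart from replicate spread. IgG, with 3 libraries, was not analysed here. YY1 in shYY1 cells was not analysed here either, and how far the hairpin lowered it is unknown.

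The lists held 2631 to 3213 peaks for shYY1 SMC3, 2061 to 4595 for control SMC3, 3750 to 10699 for YY1 and 16763 to 17895 for H3K4me3. The third control SMC3 library and the third YY1 library were the shortest of their groups. The lists give positions only, so the depth is unknown. More occupancy, more cells with occupancy and deeper sequencing cannot be told apart in them. H3K4me3 was called in at least 2 of 3 libraries near 12 of 12 early haematopoietic marker genes, among them Kit and Runx1, and near 0 of 4 hepatic and neural marker genes. It was called near 1 of 6 pluripotency marker genes (Pou5f1), 3 of 5 late erythroid genes and 1 of 4 lymphoid genes (Rag1). Among all protein-coding genes the share with H3K4me3 was 57.9%.

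Kruppel-like factors are zinc finger proteins that bind GC boxes and CACCC elements, the same kind of site that Sp1 recognises. Family members differ outside the zinc fingers: one set recruits the corepressor CtBP, another mainly activates transcription, and the last recruits the Sin3 and histone deacetylase corepressor. In blood they act in erythroid maturation, in lymphocyte quiescence and homing, and in the choice between monocytes and other myeloid cells. YY1 recognises the core GCCAT and is found at many promoters and enhancers. Cohesin holds DNA in loops and often lies at promoters and CTCF sites.

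Promoter sequences are shown first for 6 genes that cover the 4 patterns of called peaks in the windows of 10 kb. Klf6 and Klf13 had SMC3 in both arms, YY1 and H3K4me3. Klf2 and Klf11 had YY1 and H3K4me3, with SMC3 in at most 1 library of either arm. Klf3 had H3K4me3 alone, 9056 bp inside the gene and not in the printed sequence, and Klf4 had no peak at all. Each is the 250 bases before the transcript start in RefSeq's table for GRCm38.p6, 5′ to 3′ on the gene's strand. Capitals mark matches, on either strand, to the YY1 core GCCAT, the GC box GGGCGG, the CACCC-type motif CCNCNCCC and the CCAAT box. Neighbouring matches run together, because GC box and CACCC-type matches overlap. Of the 10 genes, 8 had an entry in that table, and Klf10 and Klf16 are named only.
Klf3, chr5:64803271-64803520, plus strand: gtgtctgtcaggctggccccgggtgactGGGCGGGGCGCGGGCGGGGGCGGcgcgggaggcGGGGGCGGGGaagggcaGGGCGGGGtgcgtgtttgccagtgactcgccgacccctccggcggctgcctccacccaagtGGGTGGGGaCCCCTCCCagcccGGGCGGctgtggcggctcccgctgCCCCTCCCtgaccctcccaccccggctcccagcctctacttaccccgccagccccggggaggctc
Klf2, chr8:72318812-72319061, plus strand: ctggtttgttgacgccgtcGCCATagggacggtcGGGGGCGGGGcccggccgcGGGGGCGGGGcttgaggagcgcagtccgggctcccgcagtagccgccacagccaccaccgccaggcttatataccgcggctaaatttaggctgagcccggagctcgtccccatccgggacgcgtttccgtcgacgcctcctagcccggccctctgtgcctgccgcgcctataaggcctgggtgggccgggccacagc
Klf4, chr4:55532476-55532725, minus strand: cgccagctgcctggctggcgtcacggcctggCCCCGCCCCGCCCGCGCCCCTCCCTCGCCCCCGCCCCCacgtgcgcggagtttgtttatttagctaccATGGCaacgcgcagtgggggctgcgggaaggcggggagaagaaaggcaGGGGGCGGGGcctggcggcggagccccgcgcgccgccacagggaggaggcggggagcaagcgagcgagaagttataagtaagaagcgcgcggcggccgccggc
Klf6, chr13:5861239-5861488, plus strand: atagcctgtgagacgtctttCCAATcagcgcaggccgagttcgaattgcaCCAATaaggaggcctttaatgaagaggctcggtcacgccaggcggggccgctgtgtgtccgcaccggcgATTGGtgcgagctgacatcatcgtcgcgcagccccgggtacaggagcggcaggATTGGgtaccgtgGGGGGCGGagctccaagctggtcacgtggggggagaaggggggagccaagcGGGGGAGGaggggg
Klf11, chr12:24651121-24651370, plus strand: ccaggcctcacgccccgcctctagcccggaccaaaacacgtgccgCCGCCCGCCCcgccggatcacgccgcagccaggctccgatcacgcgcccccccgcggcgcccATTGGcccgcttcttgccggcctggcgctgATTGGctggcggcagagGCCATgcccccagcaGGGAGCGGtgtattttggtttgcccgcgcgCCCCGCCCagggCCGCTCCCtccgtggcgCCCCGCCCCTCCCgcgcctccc
Klf13, chr7:63938916-63939165, minus strand: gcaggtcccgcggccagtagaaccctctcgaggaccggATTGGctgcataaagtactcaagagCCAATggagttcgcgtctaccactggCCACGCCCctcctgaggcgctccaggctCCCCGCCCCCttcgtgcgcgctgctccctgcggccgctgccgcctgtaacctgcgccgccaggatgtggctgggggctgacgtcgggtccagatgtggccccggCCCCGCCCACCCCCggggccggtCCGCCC

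Base 1 is the base farthest upstream in each of these sequences, and base 250 is the last before the transcript. In Klf6 the summits, the points of highest signal within a peak, fell on base 157 or 158 in all 3 shYY1 SMC3 libraries. They fell on the same 2 bases in all 3 control SMC3 libraries and in the first 2 YY1 libraries, and on base 158 in all 3 H3K4me3 libraries. Those bases lie 15 bp from the nearest CCAAT box and 30 bp from the GC box of a promoter with 4 CCAAT boxes and no GCCAT. In Klf2 the YY1 summits fell on base 119 in both libraries with a peak, 95 bp from its single GCCAT. In Klf11 the summit of the control SMC3 peak of library 2 and that of the upstream YY1 peak of library 2 both fell on base 162, 3 bp from its single GCCAT. The first Klf11 YY1 library had its upstream summit on base 208. In Klf13, which has no GCCAT in the window, summits fell on bases 62, 90 and 101 in shYY1 SMC3 and 160, 100 and 98 in control SMC3. Its YY1 summits fell on bases 100 and 57 in libraries 1 and 2.

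The 8 promoters were GC-rich, with 59.2% GC in Klf7 to 78.4% GC in Klf3. The CACCC-type motif occurred in 7 of the 8, in every one but Klf9, in 45.9% of all 32851 promoters of the table and in 69.6% of the 5899 with a YY1 peak in at least 2 libraries. Klf3 had 10 matches, Klf4 9, Klf7 8, Klf11 and Klf13 5 each, Klf2 4 and Klf6 2. Of these, Klf3 and Klf4 had no YY1 peak. The GC box occurred in the same 7 promoters, in 32.7% of all promoters and in 69.4% of those with YY1. GCCAT occurred in 4 of the 8 (Klf2, Klf4, Klf7 and Klf11), against 32.9% of all promoters and 32.1% of those with YY1. The longer YY1 motif GCCATNTT occurred in 0 of the 8, against 3.91% of all and 7.05% of those with YY1. CCAAT occurred in 4 (Klf6 with 4 matches, Klf9 with 3, Klf11 and Klf13 with 2 each), against 33.8% of all promoters and 41.9% of those with YY1. TATAAA occurred in none of the 8, against 12.4% of all and 4.53% of those with YY1. The cyclic AMP element core TGACG occurred in 4 of the 8, against 17.8% of all promoters and 35% of those with YY1. The CTCF core AGGNGGC occurred in 5, against 25% of all and 37.1% of those with YY1. Both strands were searched, and a match is a description of the letters, not a binding site.

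Across the 10 loci, peaks were called in at least 2 of 3 libraries of all 4 groups (SMC3 in either arm, YY1 and H3K4me3) at 5 genes: Klf6, Klf7, Klf10, Klf13 and Klf16. Klf2 and Klf11 had YY1 and H3K4me3 but SMC3 in at most 1 library of either arm. Klf3 and Klf9 had H3K4me3 alone, and Klf4 had no peak in any of the 12 libraries. The order was nested: SMC3 was reproducible only at loci with YY1, and YY1 only at loci with H3K4me3. This order was common to nearly all genes. Of the 4733 protein-coding genes with control SMC3, 4636 also had YY1, and of the 8856 with YY1, 8808 also had H3K4me3. At the threshold of 2 of 3 libraries, shYY1 SMC3 was present at 5 of the 10 loci, against 16.6% of all protein-coding genes, and control SMC3 at the same 5, against 21.6%. YY1 was present at 7 of 10, against 40.5% of all genes, and H3K4me3 at 9 of 10, against 57.9%. Among genes with H3K4me3, 69.5% also had YY1, and 7 of the 9 members did. Among genes with YY1, 52.3% had control SMC3, and 5 of the 7 members did. Gene length sets the width of the window and neighbouring genes share peaks, so the shares over all genes are a background and not a matched control. The 10 loci do not stand for the whole family. Of the 7 Klf genes not listed, 1 had SMC3 in each arm, 1 had YY1 and 2 had H3K4me3 at the same threshold.

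**Figure D1:**
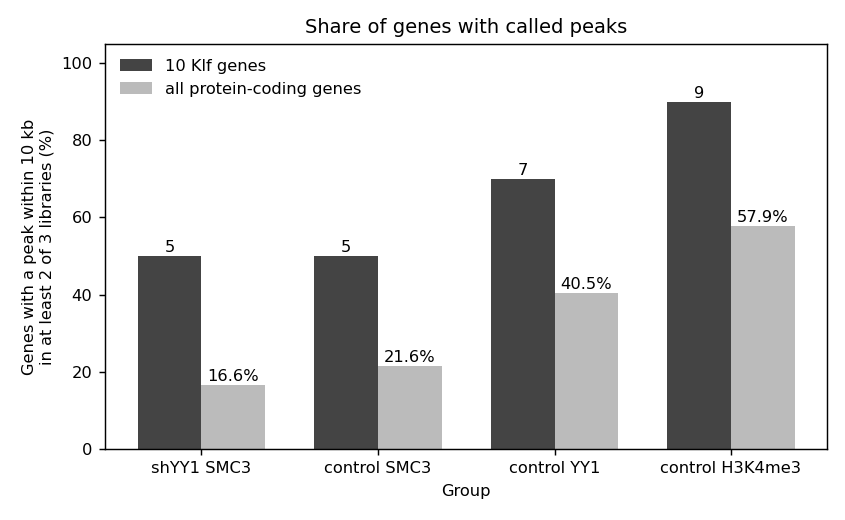
Bars give the share of genes, in percent, with a called peak within 10 kb in at least 2 of 3 libraries, for the 10 Klf genes (dark, with the number of genes above) and for all 21883 protein-coding genes (light). The share among the 10 genes was 50% or more in every group, against 16.6% (shYY1 SMC3), 21.6% (control SMC3), 40.5% (YY1) and 57.9% (H3K4me3) of all genes. The 10 genes were listed with earlier results known and leave out 7 Klf genes, most of them without peaks.

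**Figure D2:**
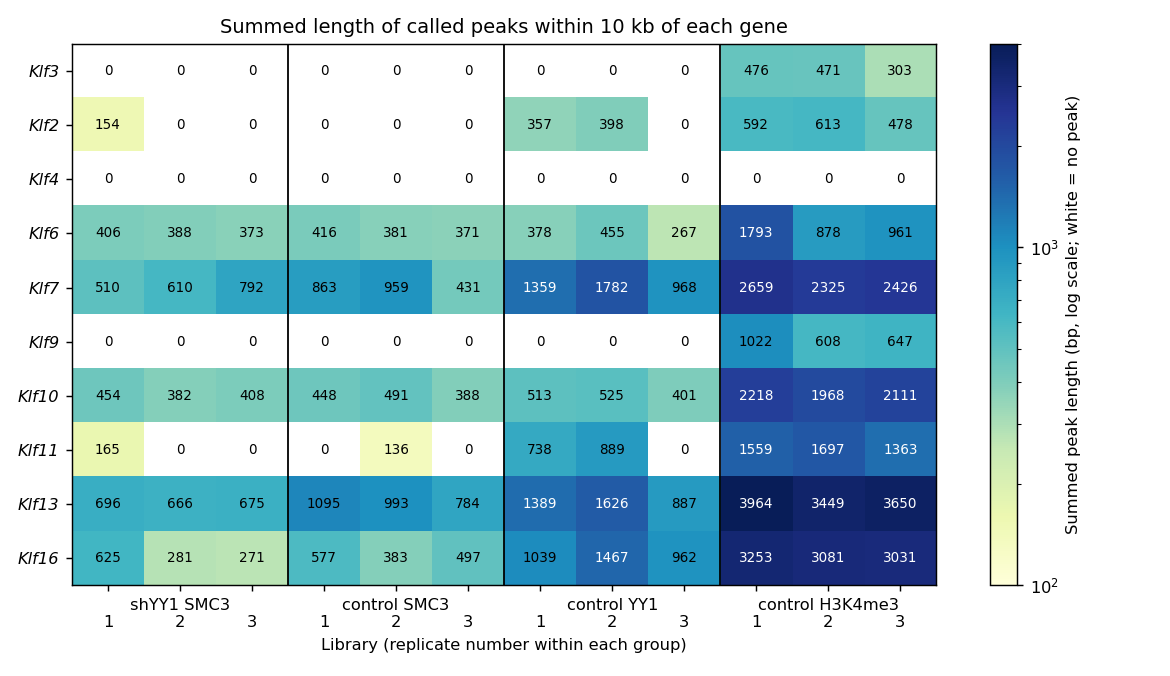
Each cell gives the summed length in bp of the called peaks within 10 kb of a gene (rows) in 1 library (columns, by group and replicate number); the colour scale is logarithmic and white means no peak. Klf6, Klf7, Klf10, Klf13 and Klf16 had a value in all 12 libraries, Klf3 and Klf9 had values for H3K4me3 alone, and Klf4 was 0 throughout.

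Klf3, which recruits CtBP and is a target of the erythroid factor Klf1, is annotated at chr5:64803521-64832901 (GRCm38.p6, plus strand). It had 1 region, chr5:64812577-64813101, which lay inside the gene, 9056 bp from the annotated transcript start. H3K4me3 peaks there were 476, 471 and 303 bp long in libraries 1 to 3. No peak of SMC3 or YY1 was called in the window in any library, and no H3K4me3 peak was called at the annotated start. The 3 H3K4me3 summits lay 9261, 9261 and 9381 bp into the gene. These were short peaks, at a mean length percentile of 23.1 among the peaks of their own libraries.

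Among the activator-type members, Klf4, the stem cell reprogramming factor that also promotes monocyte differentiation, had no peak of any target. Its span is chr4:55527137-55532475 on the minus strand. The nearest called peaks lay at least 166378 bp below the window and at least 1259330 bp above it. Some peak names were missing from each list, 49 to 99 of the running numbers, but 0 were missing between the peaks that flank this window or that of any other member.

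Klf2, which keeps T cells quiescent and is induced by fluid shear stress in endothelium, lies at chr8:72319062-72321654 on the plus strand. Its single region, chr8:72318660-72319305, spanned the transcript start. H3K4me3 peaks were 592, 613 and 478 bp long. YY1 peaks were 357 and 398 bp long in libraries 1 and 2, and library 3, the shortest YY1 list, had none. SMC3 was called in 1 shYY1 library, with 154 bp in library 1, and in 0 of 3 control libraries. That shYY1 peak was among the shortest of its list, at percentile 5.13, and its summit lay at -129 bp from the start, where negative is upstream, against -132 bp for both YY1 summits.

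Klf6, a widely expressed early-response factor, lies at chr13:5861489-5870393 on the plus strand. Its promoter region, chr13:5860791-5862167, held a peak in all 12 libraries. SMC3 peaks there were 406, 388 and 373 bp long in shYY1 cells, against 416, 381 and 371 bp in control cells. YY1 peaks were 378, 455 and 267 bp and H3K4me3 peaks 1377, 878 and 961 bp. The SMC3 lengths of the arms overlapped throughout and their means were 389 ± 16.5 bp in shYY1 and 389 ± 23.6 bp in control (SD, n = 3 each). The summit lay at -93 or -94 bp from the start in all 6 SMC3 libraries, while YY1 library 3, the shortest YY1 list, had its summit at -276 bp. A start at 5861165 was shared exactly by 4 libraries from the SMC3 and YY1 groups.

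Klf7, known for its role in neuronal development, lies at chr1:64029448-64122345 on the minus strand and had regions at its start and inside the gene. The region at the upper end, chr1:64121179-64122586, where the annotation also places the lncRNA Gm35880, held a peak in all 12 libraries. SMC3 peaks there were 510, 406 and 386 bp long in shYY1 cells, against 541, 496 and 431 bp in control cells. YY1 peaks were 721, 885 and 509 bp and H3K4me3 peaks 1403, 1383 and 1375 bp. The H3K4me3 lengths differed little between libraries, and the SMC3 ranges of the arms overlapped.

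The second reproducible region of Klf7, chr1:64078280-64079330, lay within the gene, 43015 bp from the nearer end of the span. H3K4me3 peaks were 1000, 942 and 1051 bp there and YY1 peaks 638, 707 and 459 bp. SMC3 was called in 2 of 3 libraries of each arm, with 204 and 406 bp in shYY1 libraries 2 and 3 and 322 and 463 bp in control libraries 1 and 2. It was the only region of the 10 genes inside a span and away from its ends with SMC3 in 2 libraries of either arm. The library without SMC3 was the first of shYY1 and the third of control, the shortest list of each arm.

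Among the Sin3-binding members, Klf9, a target of glucocorticoid and thyroid hormone, lies at chr19:23141226-23168129 on the plus strand. Its H3K4me3 peaks of 697, 608 and 647 bp lay outside the span, at chr19:23134873-23135597, within the lncRNA 2410080I02Rik and 5629 bp from the gene. At the Klf9 start itself 1 of 3 H3K4me3 libraries had a peak, of 325 bp. No SMC3 or YY1 peak was called. The H3K4me3 count for Klf9 thus rested on a region of another annotated transcript, and it was lost when the window was 5 kb, leaving 8 of 10 loci.

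Klf10, which is induced by transforming growth factor beta, lies at chr15:38291464-38300711. The region at its upper end, chr15:38299420-38301665, which overlaps the lncRNA Gm35248, held a peak in all 12 libraries. SMC3 peaks there were 454, 382 and 408 bp long in shYY1 cells, against 448, 354 and 388 bp in control cells. YY1 peaks were 513, 525 and 401 bp and H3K4me3 summed to 2218, 1765 and 1677 bp. The SMC3 lengths of the arms overlapped. A further SMC3 peak of 137 bp was called 1524 bp inside the gene in control library 2 only.

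Klf11, the close relative of Klf10, lies at chr12:24651371-24662782 on the plus strand, with 1 region at its start, chr12:24650617-24652313. H3K4me3 was broad, with 1559, 1697 and 1363 bp. YY1 was called as a pair of peaks in libraries 1 and 2, summing to 738 and 889 bp, and was not called in library 3. The YY1 summits lay at -43 and 501 bp from the start in library 1, and at -89 and 502 bp in library 2. SMC3 was called in 1 library of each arm, at different places: 165 bp in shYY1 library 1, with the summit at 544 bp, and 136 bp in control library 2, with the summit at -89 bp. The shYY1 SMC3 peak covered the downstream YY1 summits and the control SMC3 peak the upstream ones. Both SMC3 peaks were short for their lists, at percentiles 10.8 and 5.18.

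Klf13, a factor known for control of Ccl5 (RANTES) in T lymphocytes, lies at chr7:63886351-63938915 on the minus strand and had the most peaks of the 10 genes. The region at its transcript start, chr7:63938414-63939898, held a peak in all 12 libraries. SMC3 there covered 696, 666 and 675 bp in shYY1 cells, against 921, 993 and 784 bp in control cells. YY1 peaks were 1168, 1064 and 887 bp and H3K4me3 peaks 1485, 1483 and 1477 bp. All 3 shYY1 values lay below all 3 control values. The second shYY1 library split the region into peaks of 490 and 176 bp, and the others had 1 peak each. The longest SMC3 peak of Klf13 stood at a mean length percentile of 97.5 in shYY1 and 99.6 in control, and its YY1 peak at 99.

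Inside Klf13, H3K4me3 was called in 3 of 3 libraries at 3 further regions, of which chr7:63937221-63938101, next to the start, had neither YY1 nor SMC3. The region chr7:63896714-63897429, which overlaps the lncRNA Gm27252, had YY1 in libraries 1 and 2 and SMC3 in control library 1 only, with 174 bp. The region chr7:63910901-63911335 had YY1 in library 2 only.

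Klf16, a member of the family that binds GC-rich sites, lies at chr10:80567121-80577296. The region at its upper end, chr10:80577204-80578949, which overlaps the lncRNA Gm26710, held a peak in all 12 libraries. SMC3 peaks there were 625, 281 and 271 bp long in shYY1 cells, against 577, 383 and 497 bp in control cells. YY1 peaks were 721, 992 and 757 bp and H3K4me3 peaks 1691, 1636 and 1598 bp. The peaks of shYY1 libraries 2 and 3 lay below every control value, while shYY1 library 1, the one named Abcam, had the highest value of all 6. A second region in the window, chr10:80560666-80562098, lay within the neighbouring gene Rexo1 and had H3K4me3 and YY1 in 3 of 3 libraries and no SMC3.

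**Figure D3:**
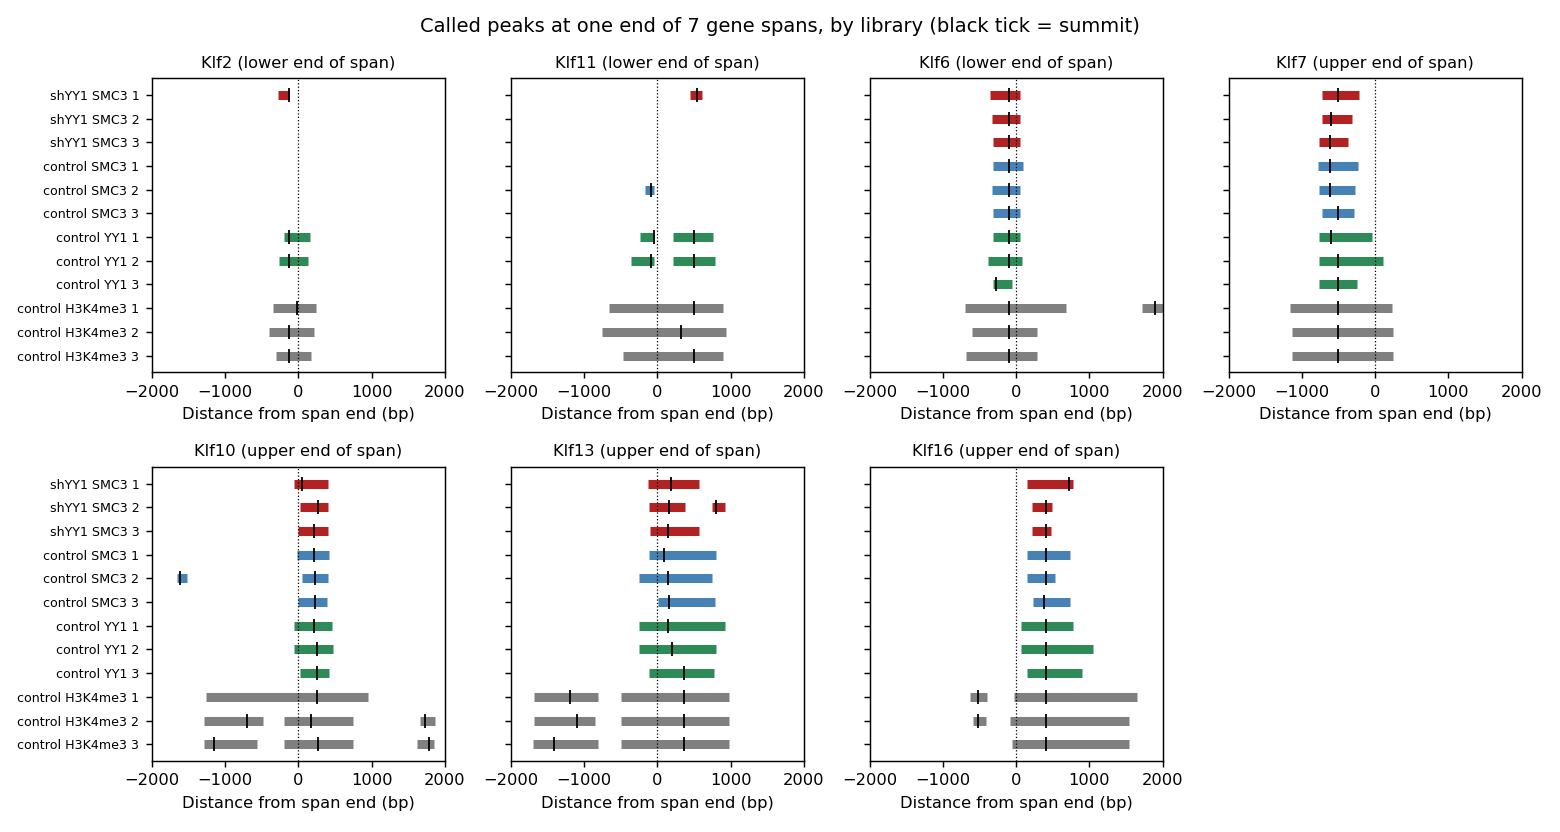
Called peaks at 1 end of 7 gene spans, drawn to scale as bars in bp from that end, for each of the 12 libraries (rows); black ticks are summits, and lower or upper end refers to genome position, not strand. The SMC3 bars at Klf6 and Klf10 lined up between the arms, and Klf2 and Klf11 had isolated short SMC3 bars. The SMC3 bars at Klf13 covered fewer bp in all 3 shYY1 libraries, although the 2 bars of shYY1 library 2 reached over 1035 bp from end to end.

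By summed H3K4me3 length in the window the order of means was Klf13 (3690 ± 260 bp), Klf16 (3120 ± 116 bp), Klf7 (2470 ± 171 bp), Klf10 (2100 ± 125 bp) and Klf11 (1540 ± 168 bp), SD with n = 3 each. The libraries of each of these lay apart from those of the next. Klf11, Klf6 (1210 ± 506 bp), Klf9 (759 ± 229 bp) and Klf2 (561 ± 72.6 bp) overlapped each with the next, Klf3 (417 ± 98.5 bp) lay barely apart below Klf2, and Klf4 was 0. The highest Klf3 value was 476 bp and the lowest Klf2 value 478 bp. By YY1, Klf7 (1370 ± 407 bp), Klf13 (1300 ± 377 bp) and Klf16 (1160 ± 272 bp) overlapped each with the next, and Klf16 lay apart from Klf11 (542 ± 476 bp). Klf11 overlapped with Klf10 (480 ± 68.4 bp), Klf10 with Klf6 (367 ± 94.5 bp) and Klf6 with Klf2 (252 ± 219 bp). The windows are as wide as the genes allow, and that of Klf2 is narrower than those of Klf7 and Klf13. The Klf16 sums include the region within Rexo1, with means of 1340 bp for H3K4me3 and 333 bp for YY1. The place of Klf16 in both orders thus rests partly on a neighbouring gene. At its upper end alone, Klf16 had YY1 peaks of 721, 992 and 757 bp, which overlapped the Klf11 sums of 738, 889 and 0 bp.

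The next comparison asked whether SMC3 at these genes differed in shYY1 cells. The 3 shYY1 libraries had 7, 7 and 6 SMC3 peaks at the 10 loci, against 8, 8 and 5 in the control libraries. Peaks were present at 7, 5 and 5 loci in shYY1 and at 5, 6 and 5 in control. The ranges overlapped for both counts, with means of 6.67 ± 0.577 peaks in shYY1 and 7 ± 1.73 in control (SD, n = 3 each). The lists differ in length, and the members made up 0.227 ± 0.0349% of all peaks in shYY1 and 0.198 ± 0.039% in control (SD, n = 3 each).

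Summed SMC3 length was lower in all 3 shYY1 libraries than in all 3 control libraries at 1 of the 7 loci with SMC3, Klf13, against 4.15% of the 6932 genes with SMC3 in any library. It was higher throughout at 0 of the 7, against 0.418% of genes. A peak in 3 of 3 control and 0 of 3 shYY1 libraries occurred at 0 of the 7, against 0.721% of genes. At Klf13 the sum over the window was 679 ± 15.4 bp in shYY1 and 957 ± 159 bp in control, a difference of -278 bp (SD, n = 3 each). When peaks within 1000 bp were joined, the Klf13 sums were 696, 1035 and 675 bp in shYY1, against 1095, 993 and 784 bp in control, so that the groups overlapped. The other loci overlapped between the arms: Klf7 averaged 637 ± 143 bp in shYY1 and 751 ± 281 bp in control, Klf10 415 ± 36.5 bp in shYY1 and 442 ± 51.7 bp in control, and Klf16 392 ± 202 bp in shYY1 and 486 ± 97.5 bp in control (SD, n = 3 each). Klf7 lay apart, lower in shYY1, when control library 3 was left out, and Klf16 when shYY1 library 1 was left out.

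At 1339 regions across the genome a peak was called in all 6 SMC3 libraries, and 5 of these belonged to the members: Klf6, Klf7, Klf10, Klf13 and Klf16. They were compared by an exact permutation test, two-sided, which with 20 ways to divide 6 libraries cannot go below p = 0.1. Length was summed over the peaks of a region, so the gap between the 490 and 176 bp peaks of shYY1 library 2 at Klf13 was left out. From end to end those 2 peaks reached over 1035 bp, more than every control value there. Klf13 reached the exact permutation p of 0.1 for length, with 679 ± 15.4 bp in shYY1 and 899 ± 106 bp in control, a difference of -220 bp. The exact permutation p, adjusted by Benjamini-Hochberg over the 1339 regions, was 0.99. The median difference over those regions was -21 bp. Peaks were shorter in all 3 shYY1 libraries at 1 of the 5 member regions, Klf13, against 7.39% of the 1339, and longer throughout at 0 of 5, against 1.72%. Klf7 differed by -55.3 bp (exact permutation p = 0.3), Klf16 by -93.3 bp (exact permutation p = 0.6), Klf10 by 18 bp (exact permutation p = 0.7) and Klf6 by -0.333 bp (exact permutation p = 1). With 1 library left out, the Klf7 difference ran between -93.3 and -29.5 bp and that of Klf16 between -210 and -32.7 bp. None of the 1339 regions passed the adjustment, where the smallest value by the exact permutation test was 0.99, and 122 reached the unadjusted 0.1.

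**Figure D4:**
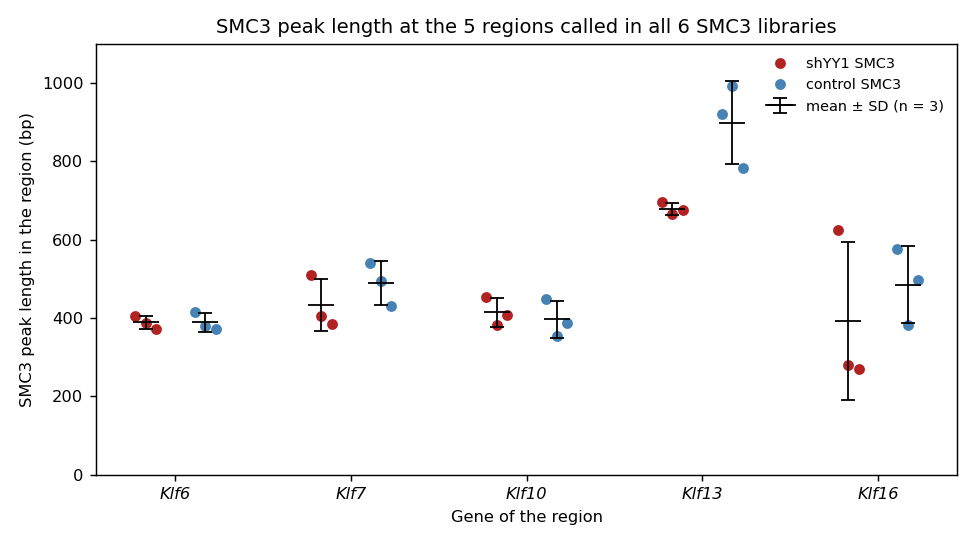
SMC3 peak length in bp at the 5 member regions called in all 6 SMC3 libraries; each point is 1 library, and bars give the mean and SD of 3 libraries. The shYY1 points (red) of Klf13 sat between 666 and 696 bp, all below its control points (blue) between 784 and 993 bp, and the arms overlapped at the other 4 regions. The Klf13 point at 666 bp is a sum of 2 peaks without the gap between them.

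Summits gave a second measure. The summit lay apart between shYY1 and control libraries at 0 of the 5 member regions, against 6.42% of the 1339. The shYY1 median lay 0 bp from the control median at Klf6 and Klf16, 10 bp from it at Klf13 and 12 bp at Klf7. At Klf10 the shYY1 median was offset by -24 bp. Single libraries departed further: the first shYY1 library had its summit 722 bp beyond the upper end of Klf16, against 405 and 401 bp in the other shYY1 libraries and 405, 410 and 375 bp in control. At Klf7 the summits took 2 places, at -509 bp or between -622 and -608 bp from the upper end, and each arm had libraries at both.

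In control cells the median YY1 summit lay within 20 bp of the median SMC3 summit at 2 of the 5 regions, Klf6 and Klf16, against 51.4% of 1330 regions with YY1. The offsets, YY1 minus SMC3, were -1 bp at Klf6, 0 bp at Klf16, 28 bp at Klf10, 43 bp at Klf13 and 111 bp at Klf7. The H3K4me3 summit lay within 20 bp of the SMC3 summit at the same 2 regions, against 30.2% of 1286. At Klf13 all 3 H3K4me3 libraries had their summit 369 bp beyond the upper end, 218 bp from the median SMC3 summit. At Klf7 all 3 H3K4me3 summits fell on -509 bp, the place where 2 YY1 libraries and 1 SMC3 library of each arm also had theirs. At Klf6 and Klf16 the summits of the 4 groups thus lay within a few bp of 1 position, apart from YY1 library 3 at Klf6 and, at Klf16, shYY1 library 1 and control SMC3 library 3.

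**Figure D5:**
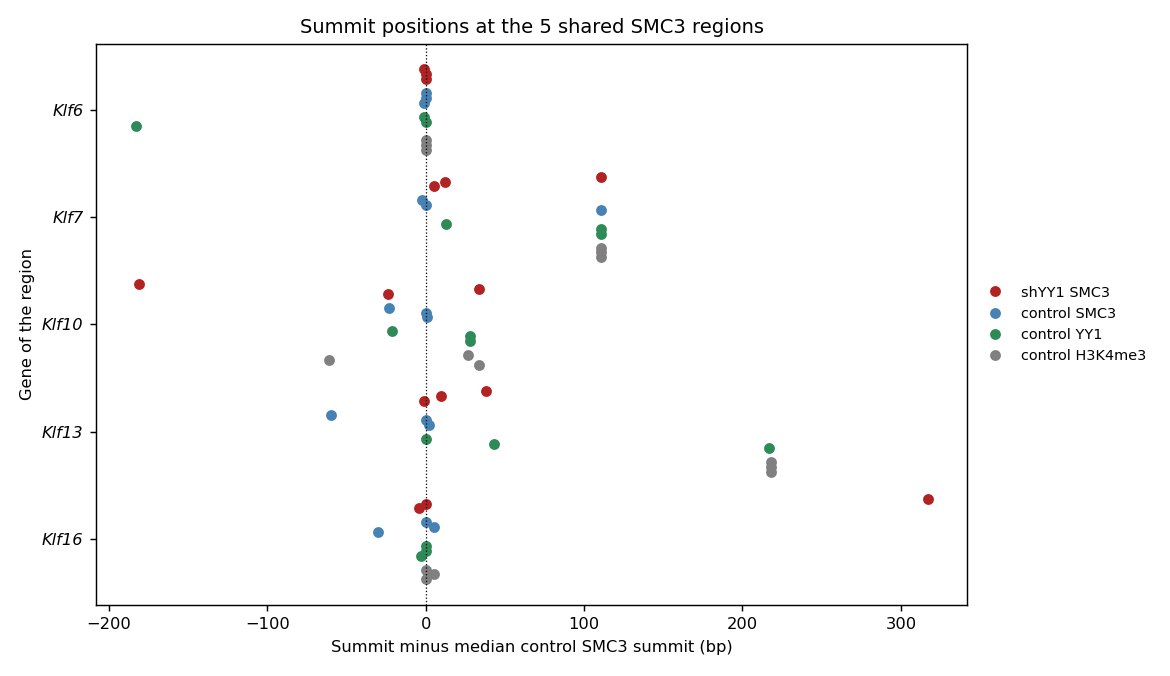
Summit position of each library at the 5 member regions, as bp from the median control SMC3 summit, with genome position increasing to the right; each point is 1 library. Points of the 4 groups lay near 0 at Klf6 and Klf16, except 1 YY1 library at Klf6 and 1 shYY1 library at Klf16. At Klf13 the H3K4me3 points (218 bp) and 1 YY1 point stood apart, and Klf7 had points near 0 and at 111 bp.

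Peak edges coincided between antibodies. A summit at 64121836 in Klf7 and one at 80577701 in Klf16 were each shared to the base by 4 SMC3 or YY1 libraries. Of SMC3 peaks at the members, 1 of 7, 2 of 7 and 2 of 6 in shYY1 and 2 of 8, 2 of 8 and 1 of 5 in control began on the same base as a YY1 peak. Over all SMC3 peaks the shares were 11.9%, 12.1% and 11.6% in shYY1 and 13%, 12.3% and 10.3% in control. IgG lists were not analysed here, so the part of shared background in these coincidences was not tested.

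The remaining members of the family, Klf1, Klf5, Klf8, Klf12, Klf14, Klf15 and Klf17, were mostly without peaks. Of these 7, 1 had SMC3 in at least 2 libraries in shYY1 and in control, the erythroid factor Klf1, which had peaks in all 12 libraries. Klf8 had H3K4me3 in 3 libraries and YY1 in 1. The 9 Sp genes, whose proteins bind the same GC boxes, had SMC3 at 4 in shYY1 and 3 in control, YY1 at 5 and H3K4me3 at 7. In the same order, the shares of all protein-coding genes were 16.6%, 21.6%, 40.5% and 57.9%. Sp1 and Sp4 had peaks in all 12 libraries, and Sp3 had SMC3 in 2 of 3 shYY1 and 1 of 3 control libraries.

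Genes for partners of the family were listed next. Of 12 cofactor genes, SMC3 was reproducible at 6 in shYY1 and 6 in control, YY1 at 10 and H3K4me3 at 12. For this list and those that follow, the shares of all protein-coding genes were 16.6% (shYY1 SMC3), 21.6% (control SMC3), 40.5% (YY1) and 57.9% (H3K4me3). Among genes with H3K4me3, 69.5% had YY1. Sin3a, the scaffold bound by the Sin3-binding members, and the deacetylase Hdac2 had peaks in all 12 libraries. Ctbp2, a corepressor partner of Klf3, had SMC3 in 2 of 3 libraries of each arm, and its paralogue Ctbp1 in none. Of 7 regulators upstream of Klf2 and Klf4, 2 had SMC3 in each arm, 4 had YY1 and 6 had H3K4me3. Those with SMC3 were Mef2d, in every library, and Foxo3, in 3 of 3 shYY1 and 2 of 3 control libraries. Of 12 known targets of the family, 4 had SMC3 in shYY1, 5 in control, 7 YY1 and 10 H3K4me3. Cdkn1a, the cell cycle inhibitor p21, had peaks in all 12 libraries. Txnip, a redox regulator and the gene by which the arms differed in this count, had SMC3 in 0 of 3 shYY1 and 3 of 3 control libraries, and Ccl5 had no peak. The pattern seen at Txnip occurred at 0.721% of the 6932 genes with SMC3 in any library.

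The genes whose 12 values lay closest to the mean of the 10 members were Suclg1, Atg4d, Fbxl13, Armc10 and Tmx3. Likeness was the Euclidean distance over the 12 libraries of log2(summed length + 100 bp), and it was 0.85 for Suclg1, 0.86 for Atg4d, 0.88 for Fbxl13 and Armc10, which share their peaks, and 1.00 for Tmx3. All 5 had peaks in all 12 libraries. The members themselves lay farther from their own mean, at 2.36 for Klf6 to 7.80 for Klf4.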

How the data were processed

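CUT&Tag peak lists of 12 of 15 libraries were used, 1 list per library. The deposited files give, in base pairs, the start, end and summit offset of each peak called by the authors, with no score, height or read count. The submitters' processing notes name MACS2 2.2.9.1, Picard 3.1.1, Bowtie2 2.5.1 and cutadapt 4.5, with build mm10. How they were set, with the peak threshold, duplicates and IgG, was not given in the sources used here. Each list lacked 49 to 99 of its running peak names.

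Starts were taken as counted from 0, which the files do not state, so printed positions may be off by 1 bp. Genes and promoters came from RefSeq for GRCm38.p6, the assembly of mm10. A peak belonged to a gene when at least 1 bp lay within 10 kb of the gene span. Peaks of all lists that shared a base were merged into regions, and reproducible means at least 2 of 3 libraries. Length percentiles are ranks within a library.

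The members and lists were chosen with earlier results of these data known. All 10 members were named, together with the 5 genes nearest to their mean and at most 4 genes of each related list, those called in the most libraries; other list genes were added as contrasts after their values were seen. Groups came from the labels. Lengths and summits at regions called in all 6 SMC3 libraries were compared by exact two-sided permutation with Benjamini-Hochberg adjustment over 1339 regions. Deviations of same-numbered SMC3 libraries over 6932 genes were checked for pairing. Calculations used Python 3.11.15, pandas 2.3.3 and numpy 2.4.6 and were tested on simulated data. Alternatives were other windows, a 50% overlap, 3 of 3 libraries, joined peaks, longer peaks, equal list lengths, omitted libraries and a replicate block.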

Additional observations from a re-analysis of the deposited data

How the results depend on the processing

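Without scores no stricter peak threshold could be run, and the longer peaks of each list (50% by length) were used instead. Over other windows, a 50% overlap, 3 of 3 libraries, longer peaks and omitted replicates, SMC3 was reproducible at 5 loci of each arm, YY1 at 5 to 7 loci and H3K4me3 at 6 to 9; the remaining settings were not run for these counts. The count of loci whose summed SMC3 length lay apart, 1 as reported, was 0 with peaks within 1000 bp joined, 2 without both libraries named Abcam (Klf13 and Klf16), and 1 to 2 with 1 library left out. It was 2 without shYY1 library 1 (Klf13 and Klf16) and 2 without control library 3 (Klf13 and Klf7); the cause was not tested. The Klf13 difference kept its sign in all 14 alternatives, from -365 to -155 bp, but most of these could not have reversed it. Its groups lay apart as reported, so leaving out libraries could not change the sign. The other windows and the 50% overlap gave the reported -278 bp again. Other comparisons could not change sign either: summed length of Klf3, Klf4 and Klf9 and the Klf6 summit differed by 0 as reported. The replicate block, counted among the alternatives, repeats each reported difference by arithmetic. With these included, single-gene differences took the opposite sign in 11 of 140 comparisons of summed length, 6 of 40 of peak length and 6 of 40 of summit position. With 1 library left out they ran from -45.3 to 55 bp for Klf11 summed length, from -9.5 to 13 bp for Klf6 length, peak and summed, from -3.33 to 43.7 bp for Klf10 peak length, from -27.8 to 43.7 bp for Klf7 summit and from -95.2 to 12.3 bp for Klf10 summit. Without both Abcam libraries they were -68 bp for Klf11 and 6 bp for Klf7 summed length, 4.5 bp for Klf6 length, -47 bp for Klf7 summit and 4.5 bp for Klf10 summit. With the longer peaks or equal list lengths, Klf10 summed length was 18 bp.

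Same-numbered SMC3 libraries had correlations of 0.00728, 0.0169 and -0.0332, against -0.0454 to 0.0384 for libraries of different number. No pairing by number was seen, but the check cannot exclude it. The first libraries, both named Abcam, had 0.00728. With a replicate block the differences, -0.333 peaks, 0.333 loci and -220 bp for Klf13 length, are by arithmetic the same as without it. Only the p-value could change, and for Klf13 length the exact sign-flip p was 0.25, the smallest that 3 pairs allow. Depth is unknown, so absence of a call is not absence of binding.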
